A study of Mus musculus with 8 samples.

Results

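Transfer RNAs (tRNAs) charged with the basic amino acids arginine, lysine and histidine were followed by anticodon in 4 small RNA libraries of mouse liver cells with and without KAP1, the transcriptional co-repressor encoded by Trim28. The members are the listed tRNA sequences whose name ends in Arg, Lys or His with an anticodon. There were 65 of 379 tRNA sequences in the table of Hepa 1-6 cells, which has 475 sequences in all, and 61 of 371 tRNA sequences in the table of primary hepatocytes, which has 467. The 61 were all among the 65. The Hepa 1-6 table held 24 tRNA-Arg, 30 tRNA-Lys and 11 tRNA-His sequences, and the hepatocyte table held 23, 28 and 10. They carry 9 anticodons, of which 5 belong to arginine, 2 to lysine and 2 to histidine.

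The study depleted KAP1 in Hepa 1-6 cells, a mouse hepatoma line, with a lentiviral shRNA against Kap1 (Kap1 KD), and used the empty vector as control. Both arms were selected with puromycin. The other pair was primary mouse hepatocytes processed directly after purification, labelled wild type (WT) or Kap1 knock-out (KO); the allele, strain and age are not given in the sources used here. Each small RNA condition had 1 library, so no difference between conditions has a replicate check. For Hepa 1-6 cells there were also 4 samples of polyadenylated RNA, 2 of each condition. Nothing states that these came from separate cultures, so p-values measure the spread between samples, which may be technical.

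A tRNA reads a codon with its anticodon, and tRNAs that carry the same amino acid but differ in anticodon are called isoacceptors. RNA polymerase III transcribes tRNA genes from promoter boxes that lie inside the gene. Each tRNA exists in several gene copies, and these are trimmed, modified and charged by the synthetase of their amino acid. The adenosine at the first anticodon base of tRNA-Arg-ACG is converted to inosine, tRNA-His receives an extra guanosine at its 5′ end, and most genes of tRNA-Arg-TCT hold an intron that is spliced out.

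No table gives positions, so the genes were looked for in the mm9 genome by the cloverleaf fold. Of the 65 members, 23 matched a single locus by chromosome, anticodon and length, and 10 more lay in sets of loci that share a single sequence. A further 27 could not be tied to single loci, and no locus was found for 5. Of the 33 tied loci, 25 overlapped no gene of the GENCODE annotation of this build, and 8 lay inside a gene, 1 of them in an exon. For each anticodon, the tied member with the most counts over the 4 libraries is printed below from mm9, on the strand of the tRNA, 5′ to 3′ and without the CCA end, with the anticodon in capitals. The members with the most counts of Arg-ACG (chr13.tRNA973) and Arg-CCT (chr11.tRNA1022) could not be tied, and the next tied member is shown.
Arg-ACG, chr9.tRNA783: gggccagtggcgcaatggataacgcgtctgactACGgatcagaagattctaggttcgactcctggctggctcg
Arg-CCG, chr11.tRNA945: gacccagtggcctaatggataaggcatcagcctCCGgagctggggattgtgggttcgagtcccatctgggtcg
Arg-CCT, chr6.tRNA107: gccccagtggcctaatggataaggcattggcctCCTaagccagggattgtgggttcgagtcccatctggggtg
Arg-TCG, chr11.tRNA1023: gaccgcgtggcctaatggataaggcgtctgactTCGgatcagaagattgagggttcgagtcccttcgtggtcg
Arg-TCT, chr3.tRNA628: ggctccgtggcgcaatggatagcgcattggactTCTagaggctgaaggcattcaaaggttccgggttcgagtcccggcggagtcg
His-ATG, chr1.tRNA717: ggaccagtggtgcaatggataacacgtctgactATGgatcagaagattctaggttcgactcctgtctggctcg
His-GTG, chr2.tRNA1432: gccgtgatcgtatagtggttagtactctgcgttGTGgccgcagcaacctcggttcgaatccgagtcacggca
Lys-CTT, chr12.tRNA790: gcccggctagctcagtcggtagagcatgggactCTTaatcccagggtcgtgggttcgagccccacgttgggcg
Lys-TTT, chr19.tRNA639: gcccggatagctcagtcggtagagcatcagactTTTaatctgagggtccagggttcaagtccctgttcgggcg

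The Arg-TCT gene shown lies at chr3:121995866-121995950 on the minus strand, inside an intron of the lincRNA gene Gm17494, and its 85 bases include an intron of 12. The Lys-CTT gene lies at chr12:72070107-72070179 on the minus strand, the Arg-CCG gene at chr11:106874180-106874252 on the plus strand, and neither overlaps a gene. The His-ATG gene lies at chr1:173599570-173599642 on the plus strand outside any gene. Its sequence matched that of Arg-ACG at 68 of 73 bases. That is closer than any pair of the 5 arginine sequences shown (Arg-TCT without its intron), where the closest pair, Arg-CCG and Arg-CCT, matched at 64. It does not hold for all arginine rows. The tied row chr13.tRNA997-ArgCCG, not printed, differs from the Arg-TCG sequence shown at fewer bases than His-ATG does from Arg-ACG. The His-ATG row is named for its anticodon, and 2 positions of its stems are unpaired. The Lys-CTT and Lys-TTT sequences matched at 59 of 73 bases.

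The total over all listed sequences was 26249204 counts in the Hepa 1-6 control, 29223566 in Kap1 KD, 3028467 in WT hepatocytes and 11006899 in Kap1 KO hepatocytes. Most were small nucleolar RNA (snoRNA), and tRNAs held 4.03%, 2.24%, 1.54% and 0.649% of them. The members held 27.9% of all tRNA counts in the Hepa 1-6 control, 30.4% in Kap1 KD, 40.1% in WT and 45.7% in Kap1 KO hepatocytes. These shares need no scaling between libraries. The rRNA was removed with different kits in Hepa 1-6 cells and in hepatocytes, so kit and cell type cannot be told apart between the pairs. These tables list no cell type markers, so the hepatocyte label could not be checked, and fewer cells of a type cannot be told apart from less RNA per cell.

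tRNA-Lys was the most counted of the 3 in every library. It took 17.7% of tRNA counts in the Hepa 1-6 control and 19.7% in Kap1 KD, against 18.97% in WT and 24.1% in Kap1 KO hepatocytes. tRNA-His took 8.81% and 9.05% in Hepa 1-6 cells, and 4.48% (95% exact binomial interval 4.30 to 4.68) in WT against 10.3% (10.1 to 10.5) in Kap1 KO hepatocytes. tRNA-Arg took 1.33% (1.31 to 1.36) in the Hepa 1-6 control and 1.66% (1.63 to 1.69) in Kap1 KD, and 16.6% (16.3 to 16.99) and 11.3% (11.1 to 11.5) in WT and Kap1 KO hepatocytes. The share of tRNA-Arg was thus higher in both hepatocyte libraries than in both Hepa 1-6 libraries, and it was lower in Kap1 KO than in WT while that of tRNA-His was higher. These intervals, like all that follow, are for counting error alone, and PCR copies of a molecule were counted as separate reads.

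**Figure D1:**
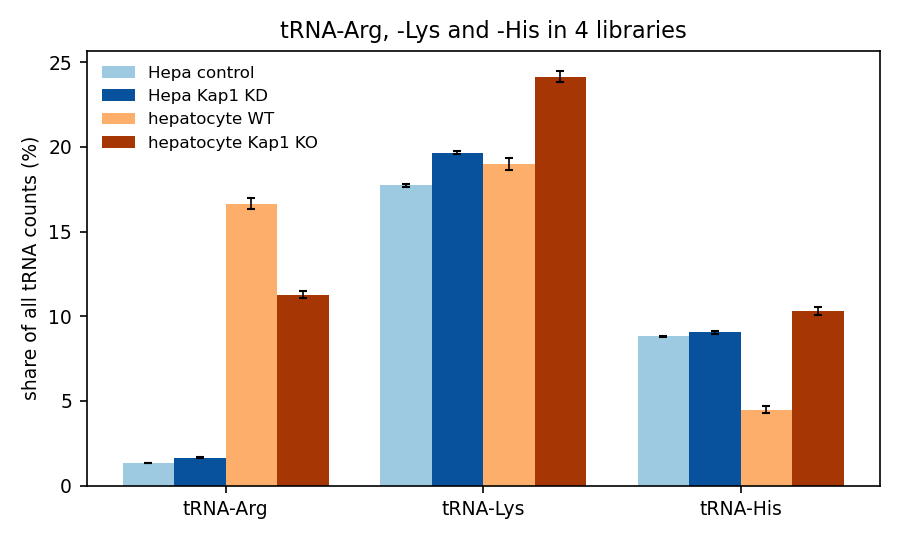
Share of all tRNA counts (%) held by tRNA-Arg, tRNA-Lys and tRNA-His in each of the 4 libraries. Bars are single libraries and error bars are 95% exact binomial intervals. tRNA-Arg is at 1.33% and 1.66% in Hepa 1-6 cells and at 16.6% and 11.3% in hepatocytes.

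Among the arginine isoacceptors, the order differed between the cell types. In the Hepa 1-6 control, Arg-TCT, which reads AGA codons, held the largest share of tRNA-Arg counts at 37.8% (36.99 to 38.6), followed by Arg-CCT at 22.1%, Arg-CCG at 19.2%, Arg-TCG at 14.5% and Arg-ACG at 6.44%. In Kap1 KD, Arg-TCT held 52.4% (51.4 to 53.3), and the other 4 each held less than in the control, with Arg-CCG at 12.0%. In WT hepatocytes Arg-CCT, which reads AGG codons, led with 48.4% (47.2 to 49.5), ahead of Arg-TCT at 15.8%, Arg-CCG at 12.8%, Arg-TCG at 11.9% and Arg-ACG at 11.04%. The intervals of Arg-CCG and Arg-TCG overlap there, and so do those of Arg-TCG and Arg-ACG. In Kap1 KO hepatocytes Arg-CCT held 55.7% (54.6 to 56.8) and Arg-TCT 12.7%.

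**Figure D2:**
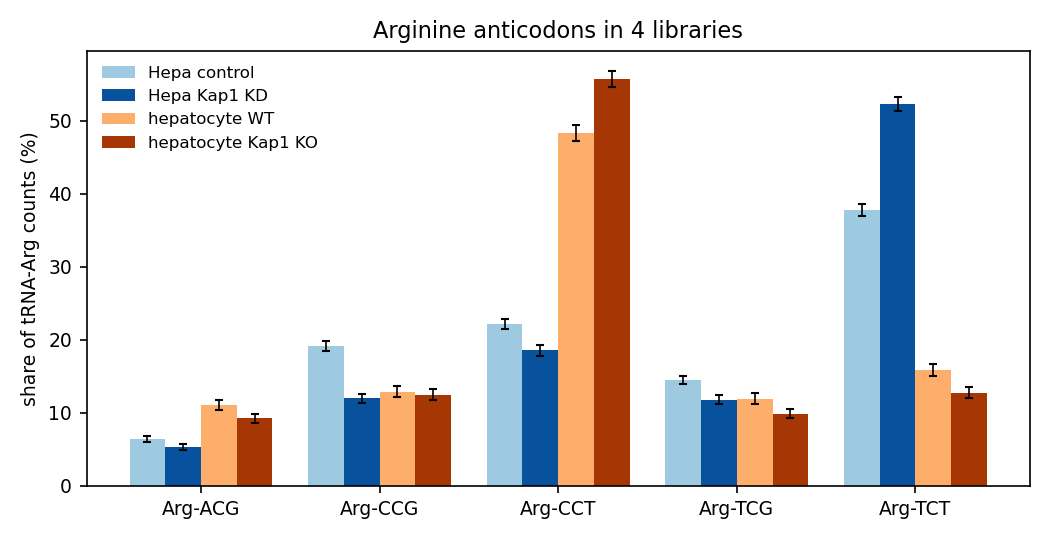
Share of tRNA-Arg counts (%) held by each of the 5 arginine anticodons in the 4 libraries, 1 bar per library, with 95% exact binomial intervals. Arg-TCT is highest in both Hepa 1-6 libraries (37.8% and 52.4%) and Arg-CCT in both hepatocyte libraries (48.4% and 55.7%).

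The lysine and histidine pools were held by few sequences. In the Hepa 1-6 control, chr12.tRNA790-LysCTT had 91510 counts, 48.7% of tRNA-Lys, and chr16.tRNA267-LysCTT had 49418, 26.3%. In Kap1 KD the same rows had 51472 counts (40.0%) and 47660 (37.1%). In hepatocytes chr16.tRNA267-LysCTT led instead, with 7036 counts (79.6%) in WT and 14480 (84.0%) in Kap1 KO, while chr12.tRNA790-LysCTT had 232 (2.62%) and 495 (2.87%). The leading Lys-CTT sequence therefore differed between the cell types in both libraries of each. Lys-TTT held 22.01% of tRNA-Lys counts in the Hepa 1-6 control and 21.1% in Kap1 KD, but 4.90% in WT and 3.81% in Kap1 KO hepatocytes. Its most counted row in Hepa 1-6 cells, chr19.tRNA639-LysTTT, had 41008 and 26870 counts, over 99% of all Lys-TTT in each library (99.3% and 99.3%), whereas in hepatocytes chr10.tRNA885-LysTTT had the most, with 247 counts in WT and 467 in Kap1 KO. The locus of chr10.tRNA885-LysTTT has 2 unpaired stem positions, the most allowed, and lies in an intron of Gm16176 on the same strand.

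For histidine, chr2.tRNA1432-HisGTG had 84453 counts in the Hepa 1-6 control and 50785 in Kap1 KD, 90.5% and 85.9% of tRNA-His. In WT hepatocytes it had 993 counts (47.5%), beside 729 (34.9%) for chr2.tRNA1431-HisGTG, and in Kap1 KO the 2 rows had 3275 (44.5%) and 3130 (42.6%). The single His-ATG row, chr1.tRNA717, had 514 and 484 counts in Hepa 1-6 cells and 106 and 169 in hepatocytes. It made up 0.551% and 0.818% of tRNA-His counts in Hepa 1-6 cells, and 5.07% and 2.30% in hepatocytes. For arginine, the most counted row was chr3.tRNA628-ArgTCT in both Hepa 1-6 libraries and chr6.tRNA107-ArgCCT in both hepatocyte libraries, with 811 counts in WT and 960 in Kap1 KO. chr11.tRNA1022-ArgCCT had 808 and 909 counts there, and the intervals of their shares overlap in both libraries.

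Rows of identical tRNA sequence did not always have similar counts. The 3 rows chr2.tRNA1432, chr2.tRNA1431 and chr2.tRNA586 and the row chr4.tRNA1697 share the His-GTG sequence printed above, and they ranged from 5 to 84453 counts in the Hepa 1-6 control. The Lys-TTT sequence is shared by 5 tied rows on 3 chromosomes, which ranged from 15 to 41008 counts. A further set, of 3 Lys-CTT rows on chromosome 17, had 7 to 9 counts. Each row also holds 200 bases of flank on either side. How reads that match several copies were assigned is not stated in the sources used here, so values of single copies are uncertain where copies are alike, and sums over copies may hold a read more than once. In hepatocytes 5 of the rows with 50 or more counts had exactly the counts of another row of the same anticodon: chrX.tRNA321-ArgCCT and chr11.tRNA1234-ArgCCT both had 725 and 881, and 3 Arg-TCG rows of chromosome 13 had 75 and 86 each. In Hepa 1-6 cells this held for 2 rows, chr3.tRNA295-HisGTG and chr3.tRNA751-HisGTG.

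The question of the KAP1 comparison was which of these tRNAs differed in count when KAP1 was depleted. Counts were divided by 1 TMM factor per library, computed over all listed tRNA and snoRNA sequences, and a sequence needed 50 counts summed over the pair. A difference is given as the log2 ratio of the depleted over the other library, with 0.5 added to each scaled count, and 1.5-fold was used as the limit for a count of sequences. Of the 65 members in Hepa 1-6 cells, 46 passed the minimum, and 37 of 61 did in hepatocytes. All 23 tRNA-Arg sequences of the hepatocyte table passed, but 10 of 28 tRNA-Lys and 4 of 10 tRNA-His sequences did.

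In Hepa 1-6 cells, Arg-TCT was higher in Kap1 KD and Arg-CCG lower, and the summed counts of the other anticodons with several members differed by little. Arg-TCT had 5343 counts in control and 5675 in Kap1 KD, and its log2 ratio was 0.71 (95% interval 0.65 to 0.76). Its 4 rows with enough counts were all above 0, from 0.36 to 0.87. Arg-CCG had 2709 and 1298 counts, with a log2 ratio of -0.44 (-0.54 to -0.35), and all 3 of its rows were below 0. The log2 ratios of Arg-ACG (-0.04), Arg-CCT (-0.02), Arg-TCG (-0.06) and Lys-TTT (0.01) had intervals that include 0. Lys-CTT was at 0.09 (0.08 to 0.10) and His-GTG at -0.04 (-0.06 to -0.03), where all tRNA counts together were at -0.08. Of the 10 Lys-CTT rows with enough counts, 5 were at least 1.5-fold lower and 1 at least 1.5-fold higher. His-ATG was at 0.53 (0.35 to 0.72).

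In hepatocytes, all 5 arginine anticodons were lower in Kap1 KO and His-GTG was higher. Arg-TCT had 1229 counts in WT and 1025 in Kap1 KO, a log2 ratio of -1.03 (-1.15 to -0.91) after scaling. Arg-TCG was at -0.98 (-1.12 to -0.85), Arg-ACG at -0.97 (-1.12 to -0.83), Arg-CCG at -0.75 (-0.88 to -0.63) and Arg-CCT at -0.51 (-0.57 to -0.45). The intervals of Arg-TCT, Arg-TCG and Arg-ACG overlap. All 23 tRNA-Arg rows were below 0, with a median of -0.62, and the median over all 166 tRNA sequences with enough counts was -0.60, with 127 of them below 0. The intervals of the rows chr11.tRNA945-ArgCCG (-0.06) and chr13.tRNA985-ArgTCT (-0.45) include 0. The 23 rows also hold the 5 with counts equal to those of another row. As sums, tRNA-Arg was at -0.71 and all tRNA at -0.15. His-GTG had 1984 and 7187 counts and a log2 ratio of 1.09 (1.02 to 1.16), with its 3 rows between 0.77 and 1.33. Lys-CTT was at 0.21 (0.17 to 0.25), and the intervals of Lys-TTT (-0.17) and His-ATG (-0.09) include 0.

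**Figure D3:**
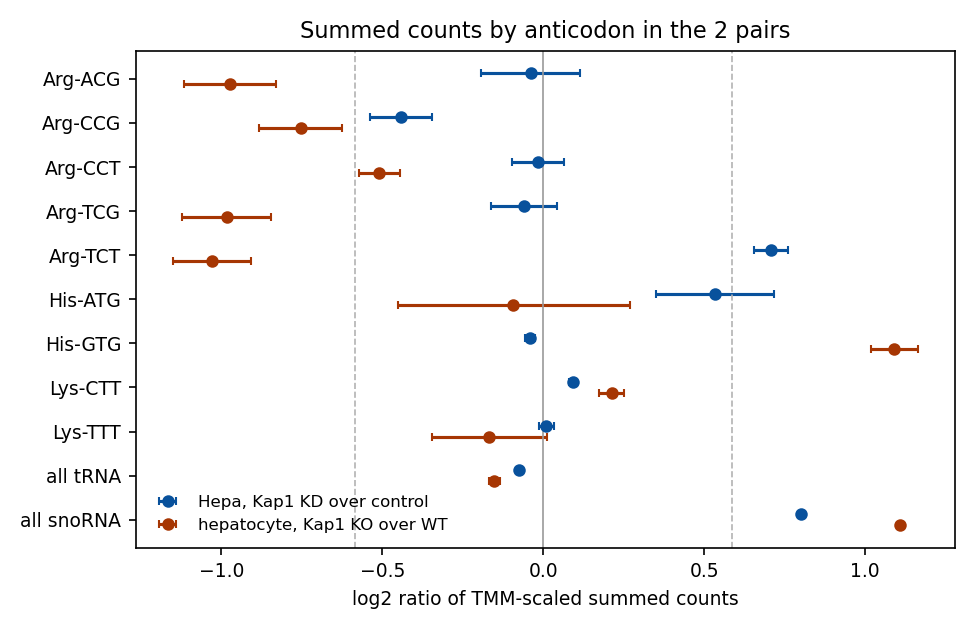
Log2 ratio of TMM-scaled summed counts, depleted over not depleted, for each anticodon and for all tRNA and all snoRNA counts, with 95% counting intervals (bars, some smaller than the points), for Hepa 1-6 cells (blue) and hepatocytes (brown). Dashed lines mark 1.5-fold. Arg-TCT is at 0.71 and -1.03, and His-GTG at -0.04 and 1.09.

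The directions depend on the scaling. Total counts are set by snoRNAs, whose sum had a log2 ratio of 0.80 in Hepa 1-6 cells and 1.11 in hepatocytes, and scaling to them moved the median of all sequences by -0.77 and -1.09. With that scaling Arg-TCT was at -0.068 in Hepa 1-6 cells and His-GTG at -0.005 in hepatocytes, and no anticodon was above 0 in either pair. Relative to the shift the order of the anticodons stayed as given, since a scaling adds the same amount to each.

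Counted by sequence, 4 of the 46 members were at least 1.5-fold higher in Kap1 KD and 7 at least 1.5-fold lower in Hepa 1-6 cells. Among all listed sequences with enough counts the shares were 15.3% higher and 19.2% lower, and among tRNA sequences 6.91% and 25.2%. The median log2 ratio of the members was -0.05, against -0.15 over tRNA sequences and -0.01 over all listed sequences. By amino acid, 1 of 23 tRNA-Arg rows was past the limit upward and 1 downward, against 1 and 6 of 15 tRNA-Lys rows and 2 and 0 of 8 tRNA-His rows. Among those 6, chr3.tRNA1-LysCTT (44 and 16 counts), chr3.tRNA2-LysCTT (45 and 17) and chr10.tRNA885-LysTTT (65 and 28) had intervals that include 0. Of the 2 tRNA-His rows, chr3.tRNA293-HisGTG had only 24 and 32 counts. In hepatocytes 6 of 37 members were at least 1.5-fold higher in Kap1 KO and 18 lower, where all listed sequences gave 27.6% and 34.9% and tRNA sequences 12.7% and 51.2%. The members' median was -0.57. The 18 were 14 tRNA-Arg rows and 4 tRNA-Lys rows, and the 6 were 3 tRNA-Lys and 3 tRNA-His rows. Among the 4, chr13.tRNA103-LysCTT (33 and 34 counts) had an interval that includes 0.

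**Figure D4:**
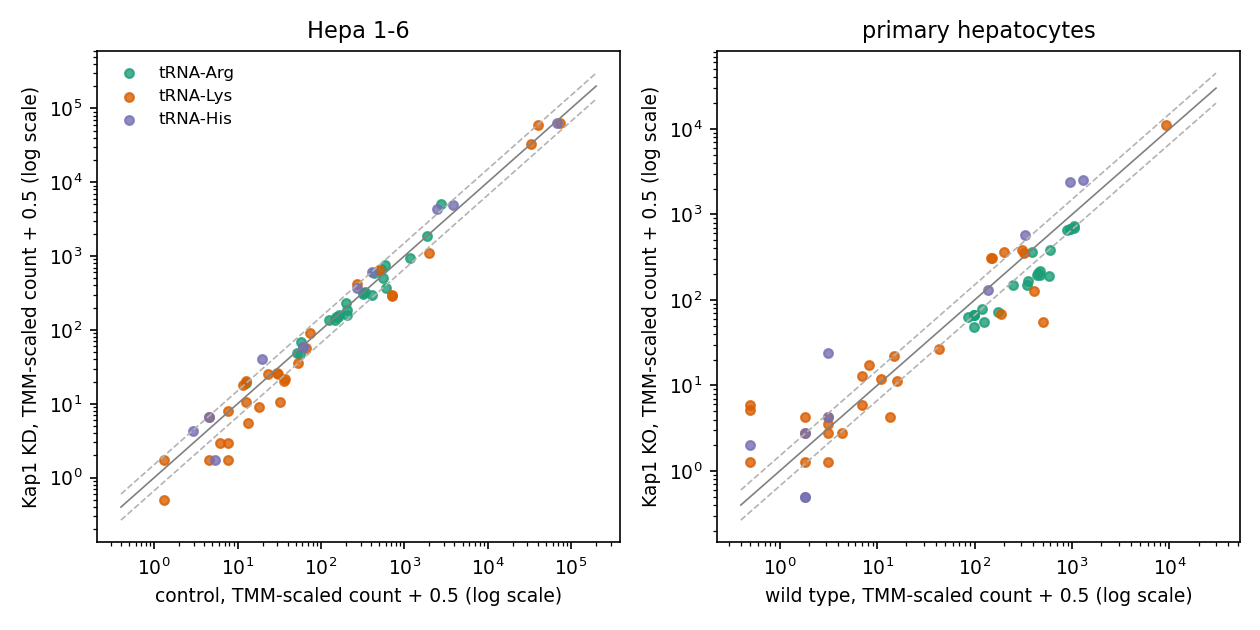
TMM-scaled count plus 0.5 of each member without KAP1 depletion (horizontal, log scale) and with it (vertical, log scale), in Hepa 1-6 cells (left, 65 sequences) and hepatocytes (right, 61 sequences). The solid line is equality and the dashed lines 1.5-fold. In hepatocytes all 23 tRNA-Arg points lie below equality.

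The largest increases in Hepa 1-6 cells, among the 40 members with at least 100 counts over the pair, were in single copies of all 3 amino acids. chr3.tRNA628-ArgTCT had 3395 counts in control and 4028 in Kap1 KD, with a log2 ratio of 0.87 (0.80 to 0.93). Without it, the sum of Arg-TCT was at 0.38 and that of all tRNA-Arg at -0.037, where it was 0.24 with it. chr2.tRNA586-HisGTG had 3076 and 3481 counts (0.80), chr3.tRNA292-LysCTT 331 and 339 (0.65), chr16.tRNA267-LysCTT 49418 and 47660 (0.57) and chr1.tRNA717-HisATG the counts given above. Of these, chr2.tRNA586 has the same tRNA sequence as chr2.tRNA1432, which was at -0.11.

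The largest decreases were in 3 Lys-CTT rows and 2 Arg-CCG rows. chr9.tRNA1514-LysCTT had 888 counts in control and 233 in Kap1 KD, with a log2 ratio of -1.31 (-1.52 to -1.10). chr1.tRNA1268-LysCTT had 880 and 238 (-1.26), and chr9.tRNA1035-LysCTT 2488 and 878 (-0.88). These 3 differ from the 2 Lys-CTT rows that hold most counts, which were at -0.21 and 0.57. chr17.tRNA994-ArgCCG, at chr17:23687230-23687302 on the minus strand and outside any gene, had 738 and 297 counts (-0.69), and chr13.tRNA997-ArgCCG had 512 and 241 (-0.47).

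In hepatocytes the same 3 Lys-CTT rows were among the 5 largest increases of the 36 members with at least 100 counts. chr9.tRNA1514-LysCTT had 112 counts in WT and 403 in Kap1 KO (1.08, interval 0.78 to 1.40), chr1.tRNA1268-LysCTT 115 and 407 (1.05), and chr9.tRNA1035-LysCTT 154 and 472 (0.85). chr9.tRNA1514 and chr1.tRNA1268 had similar counts in all 4 libraries, and whether they share reads was not tested. The other increases were chr2.tRNA1431-HisGTG (1.33) and chr2.tRNA1432-HisGTG (0.95). The largest decrease was in chrX.tRNA643-LysCTT, at chrX:132730271-132730343 on the minus strand and outside any gene, with 384 counts in WT and 71 in Kap1 KO and a log2 ratio of -3.19 (-3.59 to -2.83). The same row had 40 and 8 counts in Hepa 1-6 cells, under the minimum. It was followed by chr13.tRNA1041-LysCTT with 315 and 167 counts (-1.68), chr19.tRNA637-ArgTCT with 441 and 247 (-1.60), chr19.tRNA639-LysTTT with 142 and 89 (-1.43) and chr3.tRNA1040-ArgACG with 134 and 94 (-1.27).

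Of the 36 members with enough counts in both pairs, 16 were below 0 in both and 3 above 0 in both. A further 11 were higher in Kap1 KD and lower in Kap1 KO, and 6 were the reverse. Past 1.5-fold in both pairs, chr2.tRNA586-HisGTG was higher in both, with 255 counts in WT and 741 in Kap1 KO hepatocytes, chr17.tRNA994-ArgCCG was lower in both, and 4 members went opposite ways. Those 4 were the 3 Lys-CTT rows above and chr3.tRNA628-ArgTCT, which had 457 counts in WT and 505 in Kap1 KO (-0.62). With total counts the 3 Lys-CTT rows were below 0 in both pairs. Scaled to the total of tRNA counts, chr3.tRNA628-ArgTCT was within 1.5-fold in hepatocytes (-0.47).

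**Figure D5:**
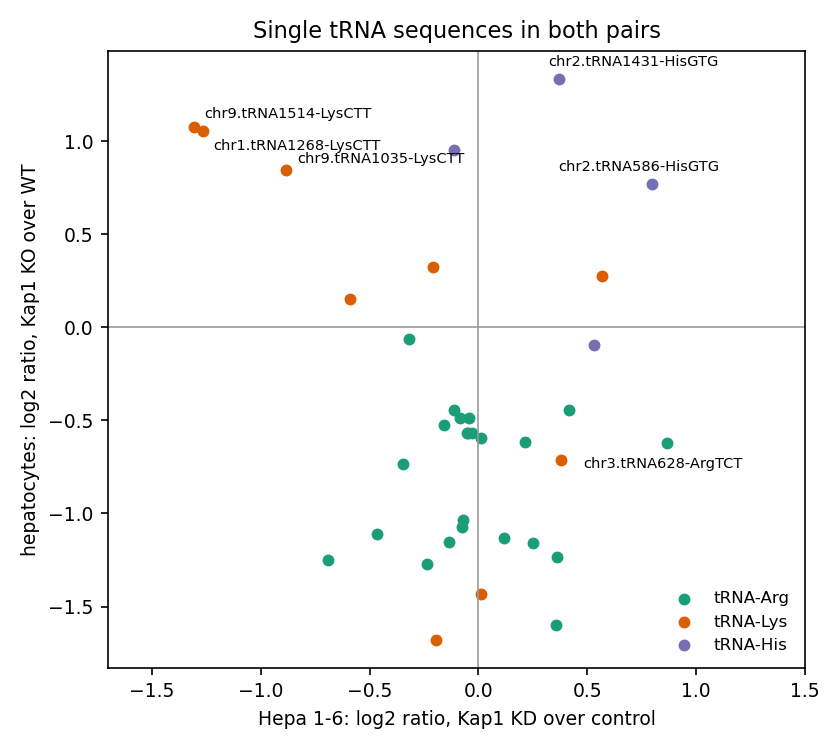
Log2 ratio in Hepa 1-6 cells (horizontal, Kap1 KD over control) against that in hepatocytes (vertical, Kap1 KO over WT) for the 36 members with at least 50 counts in both pairs. Points are single sequences, coloured by amino acid. The 3 Lys-CTT rows at the upper left are lower in Kap1 KD and higher in Kap1 KO.

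In the polyadenylated RNA of Hepa 1-6 cells, the transcripts of the machinery that transcribes, trims, modifies and charges these tRNAs were compared between the 2 samples of each condition, which had 41566888 to 53605115 counts. Trim28, the depleted gene, had 456 and 575 CPM (TMM-normalised read counts relative to library size) in control, against 106 and 78.9 in Kap1 KD, a log2 fold change of -2.48 ± 0.25 (SE). Its adjusted p was 0.9999 by edgeR's quasi-likelihood test and 2.6e-10 by DESeq2. edgeR called 0 of 14142 genes at an adjusted p under 0.05 and 1.5-fold (0.0% in each direction), 185 had an unadjusted p under 0.05, and DESeq2 called 3. Neither fit had a term for the replicate number, though deviations from the group means correlated between samples of the same number (0.855 across genes). With that number as a block, edgeR called 631 genes, Trim28 among them, and DESeq2 called 232. The labels do not say what the number marks. Of 7 liver marker genes, Alb had 1308 ± 384 CPM in control and 708 ± 378 in Kap1 KD (SD, n = 2), Afp had 724 and 524, Hnf4a 156 and 117, Apob 30.2 and 13.1, and Trf 10.7 and 7.17 (means), whereas Ttr and Apoa1 were under 0.5 CPM in every sample. The summed CPM of the 7 was 2427 and 2033 in control and 1685 and 1055 in Kap1 KD. Both Kap1 KD samples lay below both controls for 5 of the 7, where 10.6% of all 14142 genes tested did. Those 5 were Alb, Afp, Apob, Trf and Apoa1, the last with at most 21 counts per sample. The groups overlapped for Ttr and for Hnf4a, which was at 110 and 203 CPM without depletion against 85.4 and 149 with it. The part of this difference in liver markers in the values below was not tested. The summed CPM of 8 markers of other cell types was 23.4 and 23.4 in control and 18.9 and 18.1 in Kap1 KD, so it was lower there too. Most of it was Epcam, with means of 15.8 and 10.4. Of the 8, both Kap1 KD samples lay below both controls for 1 and above for 2, where 9.69% of all genes tested lay above. The 2 were Col1a1 (means of 0.80 and 1.31) and Kdr. Kdr had 0 counts in both controls and 1 in each Kap1 KD sample, and it was not tested.

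None of the 63 tested genes of the 4 lists (of 64 listed) was called by edgeR or DESeq2, and 0 had an unadjusted p under 0.05 in edgeR's fit without the block. Their log2 fold changes ranged from -0.29 to 0.44 with a median of 0.03, against -0.02 over all genes tested. The synthetases of the 3 amino acids differed by less than 1.5-fold between the groups. Rars, for arginine, had 279 and 242 in control and 291 and 242 in Kap1 KD, with a log2 fold change of 0.03 ± 0.19 (SE). Kars, for lysine, had 312 and 392 in control and 355 and 424 in Kap1 KD (0.15 ± 0.20), and Hars, for histidine, had 149 and 161 in control and 144 and 130 in Kap1 KD (-0.18 ± 0.17). The groups overlapped for Rars and Kars and not for Hars. Between samples of the same replicate number, Kars was higher in Kap1 KD each time and Hars lower each time. The ends of the range were Ctu1, of the enzyme that thiolates wobble uridine (0.44), and Tsen15, a subunit of the endonuclease that splices tRNA (-0.29).

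By list, the median log2 fold change was 0.05 over 8 charging genes, 0.03 over 18 modification and splicing genes, -0.01 over 22 genes of RNA polymerase III and its factors, and -0.06 over 15 maturation, export and cleavage genes. Both Kap1 KD samples lay above both controls for 4 of the 63 listed genes tested and below for 9, where all tested genes gave 9.69% above and 10.6% below. In this fit, which has no term for the replicate number, edgeR's adjusted p was 0.9999 for every listed gene tested, and these values do not show that the genes were unchanged.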

How the data were processed

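The authors aligned mRNA reads to mm9 with TopHat2 2.0.11 and deposited HTSeq 0.6.1 counts per gene. For small RNA they deposited counts per tRNA or snoRNA sequence with 200 flanking bases; the aligner and the treatment of reads with several matches are not given in the sources used here. Beside the counts stand a deposited normalized signal, the count divided by a median-of-ratios factor per library, and a length-scaled signal, both used only to check how they were made and for 1 alternative. The second hepatocyte columns were identical to the first. All 22 columns were mapped.

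Members and gene lists were chosen with earlier results of these data known. Small RNA log2 ratios used TMM factors (edgeR 4.0.16, R 4.3.3) and 0.5 added, with exact binomial intervals and no test. Members named individually are the most counted of each amino acid in each library and the 5 top increases and 5 top decreases of those that reach 100 counts; of the listed genes, Trim28, Rars, Kars and Hars, with the ends of a range named after their values were seen. mRNA counts were tested with edgeR (filterByExpr, TMM, quasi-likelihood, Benjamini-Hochberg), with DESeq2 1.42.0 as an alternative. Both steps were tested on simulated data. The simulated mRNA counts held no effect shared by samples of the same replicate number, so they do not show how the test behaves with one. tRNA genes were found in mm9 by landmark bases and at most 2 unpaired positions of 17 stem pairs.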

Additional observations from a re-analysis of the deposited data

Results flagged for a closer look

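The following differed in direction between the 2 pairs under TMM scaling, with counting intervals off 0 in both; with 1 library per condition the difference between the pairs was not tested. The summed counts of tRNA-Arg had a log2 ratio of 0.24 in Hepa 1-6 cells (Kap1 KD over control) and -0.71 in hepatocytes (Kap1 KO over WT). The value in Hepa 1-6 cells turned to -0.037 without chr3.tRNA628-ArgTCT, to -0.051 as the median over sequences and to -0.54 with total counts, the direction seen in hepatocytes. tRNA-His was at -0.037 and 1.05, and His-GTG at -0.041 and 1.09. In Hepa 1-6 cells tRNA-His was at 0.039 with tRNA totals, 0.41 as the median and 0.54 without its most counted row, and His-GTG at 0.035, 0.37 and 0.54, so the opposite direction does not hold under these settings. Arg-TCT was at 0.71 and -1.03, and in Hepa 1-6 cells it turned to -0.068 with total counts.

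Past 1.5-fold in both pairs, chr9.tRNA1514-LysCTT was at -1.31 and 1.08, chr1.tRNA1268-LysCTT at -1.26 and 1.05, chr9.tRNA1035-LysCTT at -0.88 and 0.85, and chr3.tRNA628-ArgTCT at 0.87 and -0.62. With total counts the 3 Lys-CTT rows were below 0 in hepatocytes too (-0.015, -0.039 and -0.25), and chr3.tRNA628-ArgTCT was at 0.092 in Hepa 1-6 cells. In hepatocytes chr3.tRNA628-ArgTCT was within 1.5-fold with median-of-ratios scaling (-0.53) and with tRNA totals (-0.47). The rRNA depletion kit differed between the pairs, and its part in these differences was not tested.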

How the results depend on the processing

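The amino acid sums moved with the scaling. With total counts, tRNA-Arg, tRNA-Lys and tRNA-His had log2 ratios of -0.54, -0.70 and -0.81 in Hepa 1-6 cells and -1.81, -0.90 and -0.047 in hepatocytes. All that were above 0 changed sign, as did every anticodon above 0, among them Arg-TCT in Hepa 1-6 cells (-0.068) and His-GTG in hepatocytes (-0.005). With tRNA totals they were 0.31, 0.15 and 0.039, and -0.56, 0.35 and 1.20. Median-of-ratios scaling gave -0.62, 0.29 and 1.14 in hepatocytes. The median over sequences gave -0.051, -0.21 and 0.41 in Hepa 1-6 cells, and -0.62 for tRNA-Arg and 0.86 for tRNA-His in hepatocytes. Without its most counted sequence, the sum was -0.037, 0.30 and 0.54 in Hepa 1-6 cells, and -0.16 for tRNA-Lys and 1.13 for tRNA-His in hepatocytes. A pseudocount of 5, and counting rows of equal counts once (chosen after seeing the data), stayed within the counting interval for all 6 sums.

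Members past 1.5-fold in Hepa 1-6 cells numbered 0 higher and 31 lower with total counts, 10 and 15 without a minimum, 1 and 2 at 2-fold, and 4 lower with a minimum of 100 counts. In hepatocytes they were 0 and 31 with total counts, 17 higher without a minimum and 3 higher at 2-fold. With only sequences of at least 50 counts, the shares of tRNA-Arg, tRNA-Lys and tRNA-His were 17.5%, 19.7% and 4.69% in WT and 11.7%, 24.8% and 10.6% in Kap1 KO hepatocytes. The deposited length-scaled values moved no amino acid share beyond its interval.

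No setting called a listed mRNA gene at an adjusted p under 0.05 and 1.5-fold. Deviations from the group means correlated between samples of the same number (0.855 across genes), but the labels do not say what the number marks. With the replicate number as a block edgeR called 631 genes in all, and 16 of the 63 listed genes had an adjusted p under 0.05. Each was below 1.5-fold (9 higher and 7 lower in Kap1 KD, log2 fold changes of -0.29 to 0.42). By edgeR's quasi-likelihood test with the block, Kars (adjusted p 0.027) and Hars (0.040) were among the 16, and Rars (0.77) was not. By the same test Ctu1 (adjusted p 1.2e-04) and Tsen15 (0.0010) were also among the 16. DESeq2 with the block (added after seeing the data) called 232 genes, and DESeq2 without it called 3. Leaving out each sample in turn gave 3 to 65 genes, and none of the listed ones. Without Kap1 KD replicate 1 the count was 65, and 21 without either control sample; the lone sample left in a group is assumed to vary like the other group. Members with few counts limit these results: 19 of 65 in Hepa 1-6 cells and 24 of 61 in hepatocytes were under 50 counts.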
